A study of Mus musculus with 23 samples.

Results

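The genes described here encode proteins of the large subunit of the mitochondrial ribosome (mitoribosome). They were chosen by name, as every gene of the count files whose GENCODE symbol is Mrpl followed by a number, together with *Ict1*, which is now called *Mrpl58*. The rule gave 48 of 37310 genes and used no measured value. At their promoters, taken from 2 kb upstream to 500 bases downstream of any annotated start, it also gave 28 of the 7500 windows for which ChIP-seq coverage was tabulated. All samples come from E14, a mouse embryonic stem cell (ESC) line. RNA-seq was measured 48 h after treatment in 3 libraries for each of 3 groups. *Zbtb11* lox/lox cells with *R26* ERt2-Cre were given 250 nM 4-hydroxytamoxifen (4OHT), which activates Cre and removes exon 3 of *Zbtb11* (*Zbtb11* KO), or ethanol (EtOH control). The third group (4OHT control) was *Zbtb11* wt/wt *R26* wt cells given 250 nM 4OHT. The KO and EtOH control cells share the floxed alleles and the Cre transgene in the *Rosa26* locus, and the 4OHT control carries neither, so both its genotype and its treatment differ from those of the EtOH control. ChIP-seq was measured with a Zbtb11 antibody in 4 libraries of E14 WT cells, and with a FLAG antibody in 3 libraries of *Zbtb11* FLAG/FLAG cells (FLAG-Zbtb11) and 2 libraries of E14 WT cells (FLAG control). Each engineered line was isolated as a single colony, so the libraries of a genotype are replicates of 1 line.

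Mitoribosomes translate the few messages of mitochondrial DNA, all of which encode subunits of the respiratory chain and ATP synthase. The mitochondrial genome supplies the ribosomal RNAs, whereas every mitoribosomal protein is encoded in the nucleus, translated in the cytosol and imported. The large subunit holds the peptidyl transferase centre, where amino acids are joined. Around it lie the exit tunnel for the growing protein, the central protuberance that faces the small subunit, and the flexible stalks that guide tRNAs and translation factors. Of the 48 proteins, 30 have a counterpart in the bacterial ribosome and 18 do not. Zbtb11 is a zinc finger transcription factor, and the comparison of *Zbtb11* KO with EtOH control cells asks which transcripts depend on it.

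Reads counted on genes numbered between 14301457 and 23876604 per library. Libraries of replicate number 1 stood apart from the others in every group. The summed level of the 48 genes was 1891 to 2027 CPM, counts scaled to a common library size after TMM normalisation, in these 3 libraries and 2231 to 2568 CPM in the 6 others, so the comparisons of the members are also given without them. The deletion of *Zbtb11* could not be followed in the counts, because the annotation assigns its locus to the gene *Rpl24*, whose level was 355 to 386 CPM in the EtOH control and 358 to 363 CPM in KO cells. All 8 markers of ESCs were expressed in all libraries, with a summed level of 3916 to 4510 CPM in KO cells and 4121 to 4532 CPM in the EtOH control. Markers of primitive endoderm summed to 6.01 to 8.04 CPM in KO cells against 6.03 to 9.65 CPM in the EtOH control. The markers of mesoderm and primed cells lay at 16.3 to 25.0 against 18.9 to 28.9 CPM, those of trophectoderm at 2.48 to 2.86 against 2.695 to 3.24 CPM, and those of fibroblasts at 17.9 to 26.4 against 16 to 22.7 CPM. None of these markers was called between the KO and EtOH groups in edgeR or DESeq2, nor at an unadjusted p under 0.05. In the 4OHT control the sums of the same lists were 4353 to 4597, 7.20 to 12.2, 24.02 to 38.3, 3.75 to 4.09 and 15.99 to 22.99 CPM. Against it, *Eomes* of the trophectoderm list was lower in KO cells (log2 fold change -0.74, edgeR adjusted p = 0.0287) and the fibroblast marker *Col1a2* was higher (1.96, 0.0026). Between the controls *Col1a2*, at 0.666 to 3.78 CPM over all libraries, was lower in the 4OHT control (-2.002, edgeR adjusted p = 0.00506). With the replicate number as a block, *Col1a1* of the same list was also higher in KO cells than in the 4OHT control (0.49, edgeR adjusted p = 0.00524). *Thy1* of that list went the other way, lower in KO cells (-0.47, edgeR adjusted p = 0.00367). Between the controls *Thy1* was higher in the 4OHT control (0.61, edgeR adjusted p = 0.000455). The blocked fit also called *Otx2*, of the mesoderm and primed list, lower in KO cells than in the 4OHT control (-0.71, edgeR adjusted p = 1.6e-05). *Otx2* was higher in the 4OHT than in the EtOH control there (0.55, edgeR adjusted p = 0.00026). The block also called 5 of the 8 ESC markers lower and 2 higher in KO cells than in the 4OHT control, beside 18.1% and 16.9% of all genes. The part of these markers in the results below was not tested.

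Levels of the genes were compared with each other per kb of annotated exon. In the EtOH control *Mrpl42* was highest with 140 ± 15.0 CPM per kb (SD, n = 3), followed by *Mrpl12*, whose protein forms the stalk that recruits translation factors, with 80.8 ± 19.1, and *Mrpl52* with 77.3 ± 14.3 CPM per kb. The ranges of *Mrpl12* (58.7 to 91.9) and *Mrpl52* (61.2 to 88.8) overlapped, whereas *Mrpl42* (128 to 157) lay above both. *Mrpl42* has 666 annotated exon bases, and a stretch of 629 bases elsewhere in the genome is 95.9% identical to it. At the other end *Mrpl33* stood at 4.04 ± 0.563, *Mrpl48* at 2.75 ± 0.409 and *Mrpl53* at 0.649 ± 0.228 CPM per kb. The order depends on the annotated exon length, taken over all transcripts of a gene. *Mrpl33* and *Mrpl52* had like means of 30.2 and 31.9 CPM, on 7473 and 412 exon bases. *Mrpl53* was the only member below the filter on expression (more than 1 CPM in at least 3 libraries), with 0.0485 to 0.711 CPM over the 9 libraries. Of its annotated exon bases, 87.1% also belong to *Ccdc142* on the same strand, and reads over shared bases cannot be assigned to either gene. The other 47 were tested among 14346 genes.

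In *Zbtb11* KO cells a few of these transcripts were strongly lower, and most lay near their level in the control. Against the EtOH control, 6 of the 47 tested genes were lower in *Zbtb11* KO cells and none was higher (edgeR, adjusted p under 0.05). Among all tested genes 0.843% were called lower and 0.0558% higher. The 6 genes were *Mrpl48*, *Mrpl1*, *Mrpl44*, *Mrpl30*, *Mrpl3* and *Mrpl13*. Over the 47 genes, the log2 fold changes had a median of -0.03, against -0.001 over all genes tested. At an unadjusted p under 0.05, 8 members were lower and none was higher, beside 1.95% and 0.85% of all genes, and DESeq2 called 7 lower and none higher, beside 1.14% and 0.112%. In bulk samples less RNA per cell and fewer cells of a kind cannot be told apart.

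*Mrpl48* (ENSMUSG00000030706.9, mm9 chr7:107694265-107756811, minus strand) encodes a protein of the central protuberance that bacteria lack. Its level was 14.2, 17.2 and 19.2 CPM in the EtOH control, 3.49, 5.19 and 4.27 CPM in KO cells and 18.1, 16.6 and 18.5 CPM in the 4OHT control. All KO libraries lay below all controls, which overlapped each other. The log2 fold change against the EtOH control was -1.96 (standard error 0.17, edgeR adjusted p = 0.000365), the largest among the members, and the KO mean was 25.6% of the control mean. In its annotation 30.4% of the exon bases overlap *D630004N19Rik* on the same strand. All 1865 exon bases of *D630004N19Rik* are shared, and reads over shared bases cannot be assigned to either gene. Its 0 counts in every library therefore do not tell whether it was transcribed. A stretch of 893 bases at chr4:88244887-88245779 is nearly identical to *Mrpl48*, and the pseudogene *Mrpl48-ps*, which lies within it, held between 0 and 15 counts.

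Another protein without a bacterial counterpart is encoded by *Mrpl44* (ENSMUSG00000026248.8, chr1:79772593-79778020, plus strand), which resembles ribonuclease III and sits near the exit tunnel. *Mrpl44* stood at 27.4, 30.6 and 30.2 CPM in the EtOH control, 9.72, 9.36 and 10.3 CPM in KO cells and 25.1, 32.5 and 37.3 CPM in the 4OHT control. The KO values were tight (9.79 ± 0.466 CPM, SD, n = 3) and far below either control. The log2 fold change was -1.59 (standard error 0.15, edgeR adjusted p = 0.000511).

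*Mrpl1* (ENSMUSG00000029486.7, chr5:96638512-96695746, plus strand) encodes the protein of the L1 stalk, which accompanies spent tRNAs away from the ribosome. It was measured at 41.3, 56.6 and 58.2 CPM in the EtOH control, 12.8, 19.1 and 17.8 CPM in KO cells and 39.9, 51.1 and 54.8 CPM in the 4OHT control. In all 3 groups replicate 1 was lowest, and the KO libraries were nonetheless below every control library. The log2 fold change was -1.65 (standard error 0.19, edgeR adjusted p = 0.00247). *Mrpl1* exons share near-identical stretches of up to 140 bases with 54 other loci, at up to 96.9% identity. Some reads from such stretches may not be assigned to 1 locus.

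Proteins of the conserved core are encoded by *Mrpl3* (ENSMUSG00000032563.9, chr9:104955569-104979796, plus strand), whose product reaches towards the peptidyl transferase centre, *Mrpl30* (ENSMUSG00000026087.5, chr1:37947322-37955380, plus strand) and *Mrpl13* (ENSMUSG00000022370.6, chr15:55365649-55389303, minus strand). *Mrpl30* fell from 37.6, 48.7 and 48.9 CPM in the EtOH control to 12.8, 17.3 and 17.4 CPM in KO cells, with 40.4, 44.7 and 48.02 CPM in the 4OHT control (log2 fold change against EtOH -1.51, standard error 0.15, edgeR adjusted p = 0.000944). *Mrpl3* fell from 36.7, 45.7 and 45.1 CPM to 10.5, 18.6 and 18.4 CPM, with 34.4, 47.4 and 50.3 CPM in the 4OHT control (-1.42, standard error 0.23, edgeR adjusted p = 0.0186). The decrease of *Mrpl13* was smaller, from 37.5, 45.6 and 46.9 CPM to 18.9, 24.6 and 26.3 CPM, and its 4OHT control values were 41.4, 44.5 and 51.4 CPM (-0.90, standard error 0.15, edgeR adjusted p = 0.0219). For each of these genes the KO range lay below both control ranges. A stretch of 709 bases at chr11:3370831-3371531 is 95.1% identical to *Mrpl30*.

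Below the threshold against the EtOH control were *Ict1* and *Mrpl16*. *Ict1* (ENSMUSG00000018858.9, chr11:115265066-115273988, plus strand) encodes a peptidyl-tRNA hydrolase that is built into the central protuberance and can release proteins from stalled mitoribosomes. It stood at 36.8, 48.3 and 44.4 CPM in the EtOH control, 17.2, 24.4 and 26.0 CPM in KO cells and 32.5, 44.1 and 46.0 CPM in the 4OHT control. Its log2 fold change against EtOH was -0.94 (standard error 0.19, edgeR adjusted p = 0.0769), close to that of *Mrpl13* in size. *Mrpl16* (ENSMUSG00000024683.4, chr19:11844881-11849434, plus strand) encodes a core protein near the tRNA sites. It had 22.9, 29.5 and 28.1 CPM in the EtOH control, 18.8, 18.1 and 20.1 CPM in KO cells and 27.4, 30.0 and 35.9 CPM in the 4OHT control (-0.50, standard error 0.13, edgeR adjusted p = 0.33). In both genes the KO libraries again lay below all control libraries, and the controls overlapped.

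**Figure D1:**
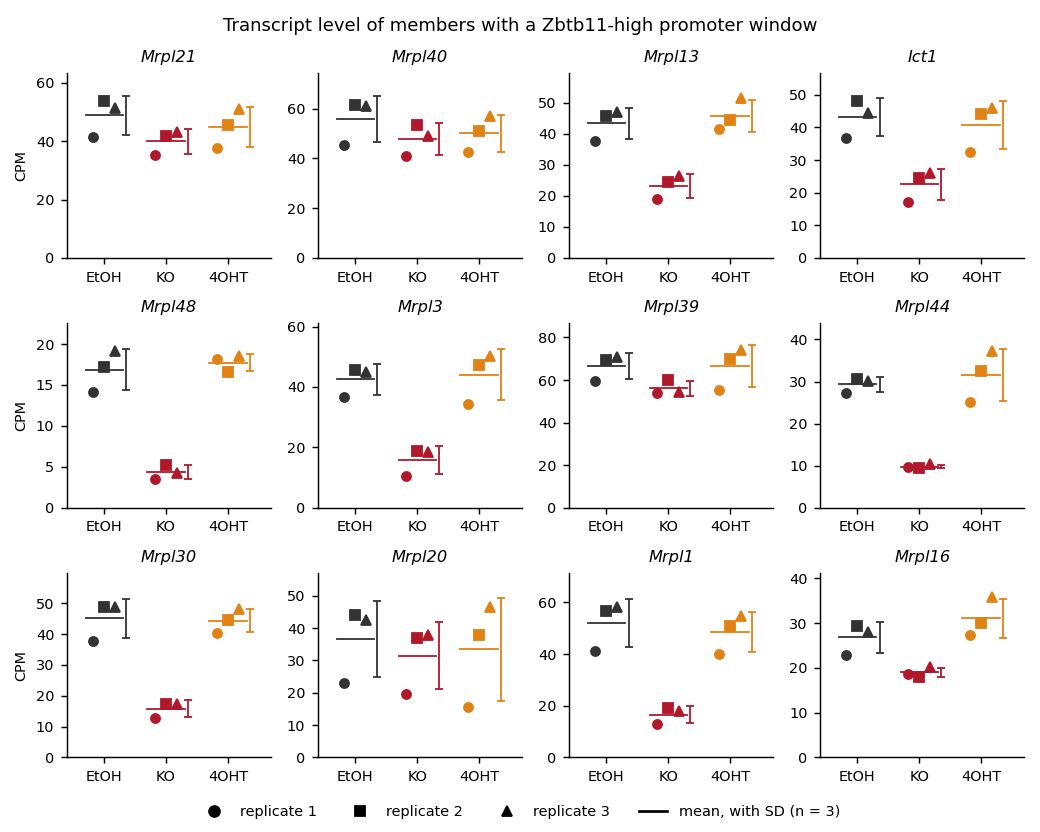
Transcript level in CPM (vertical axes, from 0) of the 12 large-subunit genes with a Zbtb11-high promoter window, in the EtOH control, *Zbtb11* KO and 4OHT control. Symbols are the libraries of replicates 1, 2 and 3, horizontal lines the means and bars the SD (n = 3). In 8 of the 12 panels the KO libraries lie below every control library, and *Mrpl21*, *Mrpl39*, *Mrpl40* and *Mrpl20* are the panels where the groups overlap.

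Counting libraries rather than p-values, all KO libraries lay below all EtOH control libraries for 9 of the 47 genes, where 4.02% of all tested genes did so. These were the 6 called genes, *Ict1*, *Mrpl16* and *Mrpl42*. All KO libraries lay above all EtOH control libraries for 3 genes, *Mrpl28*, *Mrpl27* and *Mrpl41*, beside 3.19% of all tested genes. For *Mrpl42* the means were 93.3 ± 10.0 CPM in the EtOH control and 82.1 ± 0.875 CPM in KO cells (SD, n = 3), and the 4OHT control at 78.2 ± 3.73 CPM was also below the EtOH control.

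Since libraries with the same replicate number varied together, the number was also entered as a block. The blocked fit called 9 members lower and none higher against the EtOH control, beside 1.79% lower and 0.46% higher among all genes. It added *Ict1* (edgeR adjusted p = 5.19e-09), *Mrpl16* (edgeR adjusted p = 0.00061) and *Mrpl21* (log2 fold change -0.29, edgeR adjusted p = 0.00998). Without replicate 1, 8 members were lower, the 6 genes with *Ict1* and *Mrpl16*, beside 1.35% of genes, and none was higher, beside 0.148%. Without replicate 2 or without replicate 3 no member was lower in edgeR, where only 0.0896% and 0.145% of all genes were. In the 3 replicate numbers taken singly, the median difference in log2(CPM + 0.5) of the 12 genes with a Zbtb11-high window was -1.02, -0.92 and -0.79, and that of the other tested members was 0.05, -0.03 and 0.05.

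The comparison with the 4OHT control, which matches the treatment and differs in genotype, shares the KO libraries with the one above. Here 8 of the 47 genes were lower in KO cells and none was higher, beside 3.72% lower and 2.73% higher among all genes (edgeR). At an unadjusted p under 0.05, 8 were lower and 3 higher, beside 10% and 9.14% of all genes. DESeq2 called 8 lower, beside 5.67% of all genes, and 2 higher, *Mrpl14* and *Mrpl51*, a share near the 4.57% of all genes. The 8 lower ones were the 6 genes above, *Ict1* and *Mrpl16*. Their log2 fold changes were -2.03 for *Mrpl48* (edgeR adjusted p = 0.000156), -1.69 for *Mrpl44* (edgeR adjusted p = 0.000166), -1.55 for *Mrpl1*, -1.49 for *Mrpl30*, -1.47 for *Mrpl3*, -0.98 for *Mrpl13*, -0.86 for *Ict1* (edgeR adjusted p = 0.0289) and -0.71 for *Mrpl16* (edgeR adjusted p = 0.0135). All KO libraries lay below all 4OHT control libraries for 9 genes, these 8 and *Mrpl4*, beside 11.8% of all tested genes. They lay above all 4OHT control libraries for 4 genes, *Mrpl24*, *Mrpl14*, *Mrpl51* and *Mrpl41*, beside 11.1%. Without replicate 2 only *Mrpl48* was lower, beside 0.469% of all genes, and without replicate 3 only *Mrpl44* and *Mrpl48*, beside 0.592%. Without replicate 1, 10 members were lower, beside 10.3% of genes, and 6 were higher, beside 8.38%.

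With the block the comparison with the 4OHT control called 11 members lower and 13 higher, beside 18.1% and 16.9% of all genes. The share of members called higher was therefore above that of all genes, and the 13 included none of the 12 genes with a Zbtb11-high window. Among the 13 were *Mrpl36* (log2 fold change 0.54, edgeR adjusted p = 1e-05 with the block and 0.325 without), *Mrpl52* (0.28, 0.00437 with the block and 0.519 without), *Mrpl33* (0.30, 0.00313 with the block) and *Mrpl12* (0.26, 0.00185 with the block). The largest rise of all members was that of *Mrpl51*, with a log2 fold change of 0.652 with the block and 0.646 without.

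Between the controls no member was called in either direction (edgeR, unblocked), beside 2.01% of all genes lower and 2.06% higher in the 4OHT control. At an unadjusted p under 0.05, 5 were lower and 1 was higher, beside 8.71% and 9.26% of all genes, and DESeq2 called 1 lower, *Mrpl51*, and none higher, beside 4.16% and 4.11%. Without replicate 1, 9 members were lower and none higher, beside 8.22% and 8.86% of all genes. With the block 15 members were lower and 3 higher in the 4OHT control, beside 16.5% and 17% of all genes. Lower were for example *Mrpl45*, whose protein anchors the mitoribosome at the inner membrane (-0.31, edgeR adjusted p = 0.000243 with the block), *Mrpl36* (-0.41, 0.000289) and *Mrpl52* (-0.32, 0.00173). The largest decrease between the controls was that of *Mrpl51*, with a log2 fold change of -0.62 with the block. *Mrpl16* was among the 3 higher ones (0.21, 0.0479). None of the other 11 genes with a Zbtb11-high window was called. The log2 fold changes of the 12 between the controls ranged from -0.16 to 0.22, compared with -1.96 to -0.21 for KO against EtOH control.

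**Figure D2:**
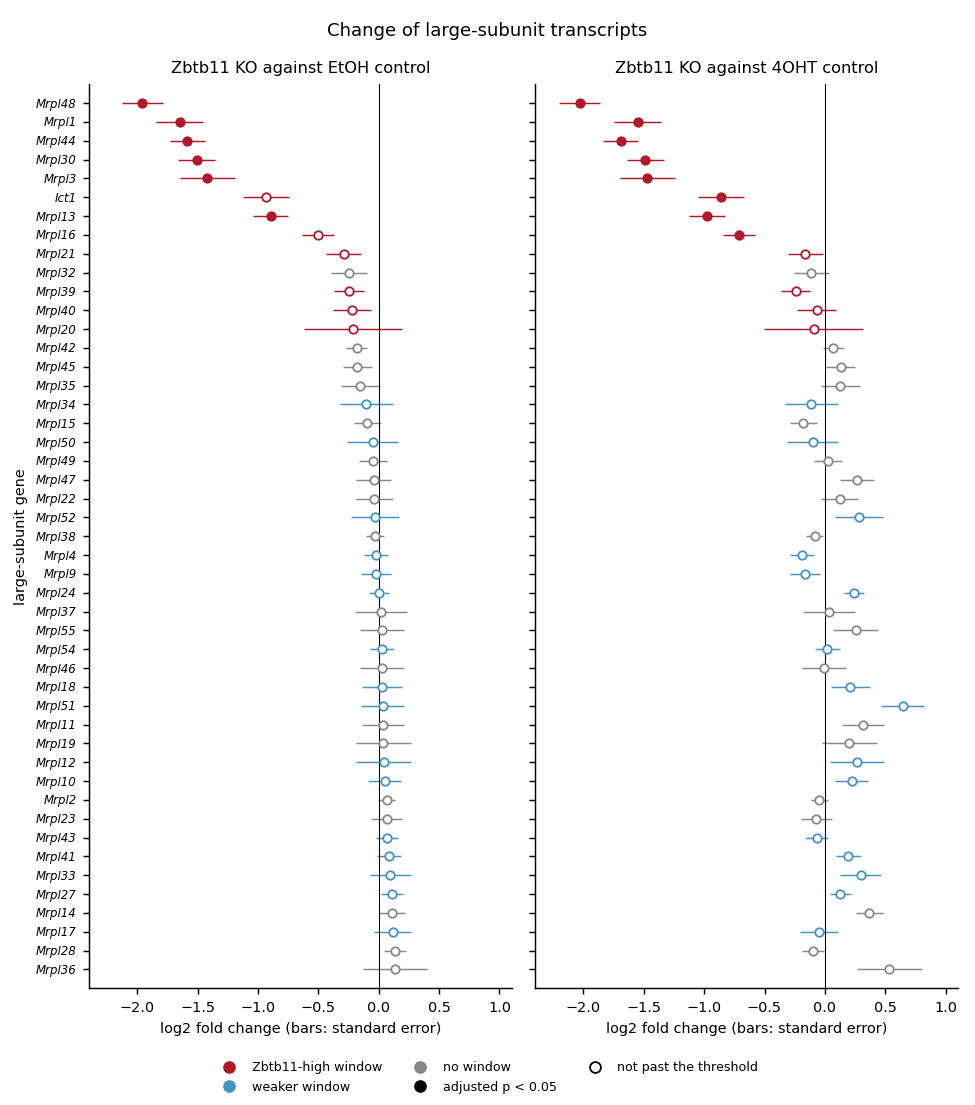
Log2 fold change (horizontal axes) of the 47 tested large-subunit genes in *Zbtb11* KO cells against the EtOH control (left) and against the 4OHT control (right), with the standard error as bars. Filled symbols have an adjusted p under 0.05, and colours give the class of the promoter window. The filled symbols are 6 genes on the left and 8 on the right, all of them lower in KO cells and all with a Zbtb11-high window.

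By structure, the 6 genes called against the EtOH control were spread over the subunit. Of the 30 genes with a bacterial counterpart 4 were lower, and of the 17 tested genes without one 2 were lower, beside 0.843% of all genes. In the exit tunnel group 1 of 8 was lower (*Mrpl44*), in the central protuberance 1 of 9 (*Mrpl48*) and in the stalks 1 of 5 (*Mrpl1*). Against the 4OHT control the central protuberance had 2 of 9, with *Ict1*, beside 3.72% of all genes. Among the members that were not called and had no Zbtb11-high window, the largest changes against the EtOH control were those of *Mrpl32* (-0.25, standard error 0.15), *Mrpl42* (-0.18, 0.09), *Mrpl45* (-0.18, 0.12), *Mrpl35* (-0.15, 0.16) and *Mrpl36* (0.14, 0.26).

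By ChIP-seq, Zbtb11 was found at most of these promoters, and at some of them among its strongest sites. A window of 1200 bases of the coverage table lay at 28 of the 48 promoters (58.3%), against 32.3% of 13351 expressed protein-coding genes. Coverage is the read count over the window, normalised between libraries by the authors. Windows whose mean over the 4 Zbtb11 libraries exceeds 308.9 are called Zbtb11-high, a limit set 1.5 interquartile ranges above the upper quartile of all 7500 windows. Such a window lay at 12 of the 48 promoters (25%), against 6.34% of expressed protein-coding genes. The median coverage of the members' windows was 158, against 103 for promoter windows of expressed protein-coding genes and 71.3 for all windows. No member promoter overlapped any of the 274 peaks of the FLAG control.

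The members' windows fell into separate strengths. The 12 Zbtb11-high windows had means between 524 (*Mrpl16*) and 920 (*Mrpl21*), and the next window, at *Mrpl34*, had 261. *Mrpl21* measured 722, 1044, 604 and 1309 in the Zbtb11 libraries and 974, 915 and 459 in the FLAG-Zbtb11 libraries, and it had rank 38 of all windows. *Mrpl40* followed with 692, 1032, 692 and 1135 in the Zbtb11 libraries and 1000, 1007 and 510 in the FLAG-Zbtb11 libraries. *Mrpl48* measured 539, 779, 543 and 1011, with 690, 734 and 425 for FLAG-Zbtb11. *Mrpl1*, among the weakest of the 12, measured 447, 622, 394 and 738, with 603, 592 and 304 for FLAG-Zbtb11. Replicate 4 gave the highest Zbtb11 value at all 12, and FLAG-Zbtb11 replicate 3 the lowest FLAG value at all 12.

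The remaining strong windows had means of 819 at *Mrpl13*, 809 at *Ict1*, 669 at *Mrpl3*, 609 at *Mrpl39*, 606 at *Mrpl44* and at *Mrpl30*, and 571 at *Mrpl20*. *Mrpl39* encodes a protein that resembles a threonyl-tRNA synthetase, *Mrpl20* a core protein that joins early in assembly of its bacterial counterpart, and *Mrpl21* and *Mrpl40* a core protein and one of the central protuberance. The 16 weaker windows reached from 31.9 at *Mrpl9* to 261 at *Mrpl34*. At *Mrpl34* the ChIPs differed, with 190, 359, 251 and 243 in the Zbtb11 libraries and 57.0, 49.7 and 48.9 in the FLAG-Zbtb11 libraries, which gave the window rank 1030 by the first and 4667 by the second.

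**Figure D3:**
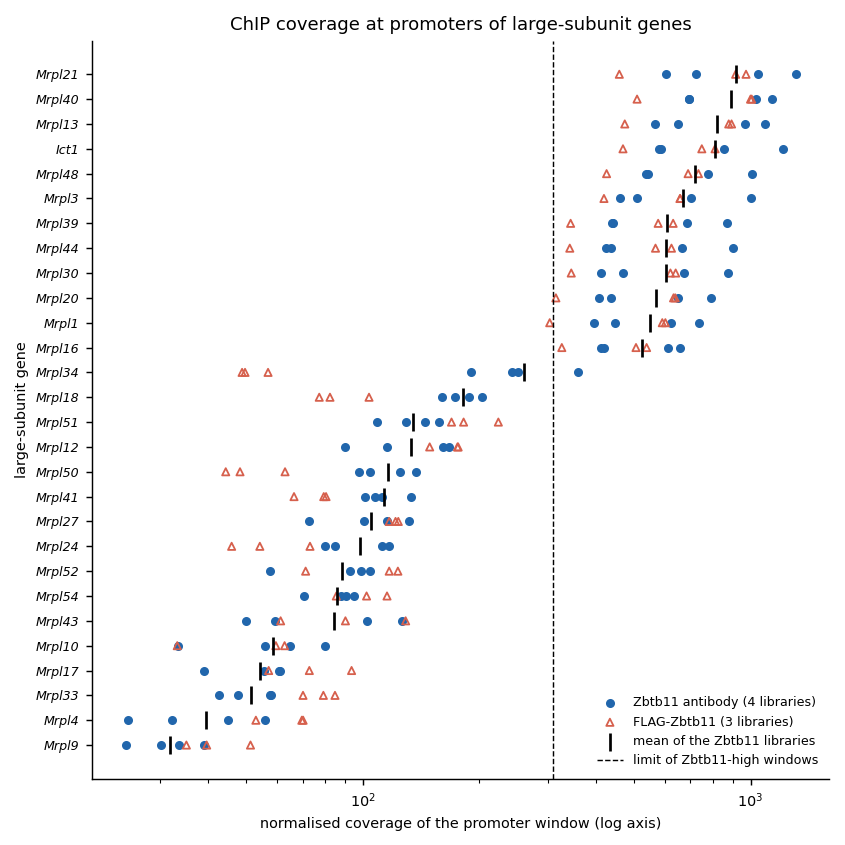
Normalised ChIP-seq coverage (horizontal log axis) of the promoter windows of 28 large-subunit genes in the 4 Zbtb11 antibody libraries (circles) and the 3 FLAG-Zbtb11 libraries (triangles), with the Zbtb11 mean as a vertical tick and the limit of 308.9 as a dashed line. The 12 strongest windows, with means of 524 to 920, are separated from the others by a gap down to 261 at *Mrpl34*.

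Most strong windows were centred on a transcription start. The centre lay within 100 bases of the nearest annotated start of the gene at 11 of the 12, for example at 13 bases downstream for *Mrpl30* and 55 downstream for *Mrpl44*. At *Mrpl40* it lay at -409 bases, upstream and towards the divergently transcribed *Hira*. The *Mrpl48* window was centred 19 bases upstream of an internal start of the annotated gene, and not at the outermost start. Those of *Mrpl1*, *Mrpl13* and *Mrpl39* were also centred near an internal start, at -8, -33 and -53 bases from it. The strongest windows of *Mrpl41* and *Mrpl54* lay further upstream, with centres at -841 and -1212 bases.

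To show what these windows hold, 200 bases around the window centre are printed from mm9 for the 6 genes that were lower against the EtOH control, and for *Mrpl39* and *Mrpl21*, which have windows of like strength and were called only with the block or without replicate 1. The strand is that of the gene. Capitals mark matches on either strand to CCGGAAG, the core bound by ETS factors such as GABPA, to GCGCATG, the core bound by NRF-1, and to CGGAACC, a motif of 7 letters picked after comparing Zbtb11-high with weaker windows of these data. Matches can overlap, as those to CCGGAAG and CGGAACC do at *Mrpl48* and the 2 to GCGCATG at *Mrpl39*.
Mrpl48, chr7:107731564-107731763, minus strand: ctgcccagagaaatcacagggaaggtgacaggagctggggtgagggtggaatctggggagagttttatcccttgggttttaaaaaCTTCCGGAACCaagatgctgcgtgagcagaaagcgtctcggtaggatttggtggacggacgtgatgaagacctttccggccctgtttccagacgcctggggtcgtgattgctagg
Mrpl1, chr5:96639027-96639226, plus strand: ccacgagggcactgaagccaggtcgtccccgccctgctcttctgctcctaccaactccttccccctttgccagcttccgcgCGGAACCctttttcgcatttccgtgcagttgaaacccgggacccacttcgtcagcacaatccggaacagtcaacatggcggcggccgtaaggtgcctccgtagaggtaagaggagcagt
Mrpl44, chr1:79772549-79772748, plus strand: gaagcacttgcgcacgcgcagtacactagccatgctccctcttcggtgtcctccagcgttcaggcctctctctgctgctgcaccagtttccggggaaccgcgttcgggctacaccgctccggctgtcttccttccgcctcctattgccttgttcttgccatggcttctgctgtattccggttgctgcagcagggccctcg
Mrpl30, chr1:37947236-37947435, plus strand: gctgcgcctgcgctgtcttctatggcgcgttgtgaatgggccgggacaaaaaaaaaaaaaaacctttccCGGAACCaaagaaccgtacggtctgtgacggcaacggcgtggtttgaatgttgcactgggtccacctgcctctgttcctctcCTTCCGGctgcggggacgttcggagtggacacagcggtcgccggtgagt
Mrpl3, chr9:104955456-104955655, plus strand: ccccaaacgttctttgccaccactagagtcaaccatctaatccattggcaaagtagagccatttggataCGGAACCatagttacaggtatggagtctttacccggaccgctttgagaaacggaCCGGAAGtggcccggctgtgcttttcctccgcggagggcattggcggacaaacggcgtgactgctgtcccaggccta
Mrpl13, chr15:55388838-55389037, minus strand: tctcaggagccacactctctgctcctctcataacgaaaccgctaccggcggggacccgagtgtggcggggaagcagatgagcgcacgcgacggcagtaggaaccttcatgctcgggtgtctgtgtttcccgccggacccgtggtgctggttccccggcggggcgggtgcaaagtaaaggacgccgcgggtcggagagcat
Mrpl39, chr16:84735429-84735628, minus strand: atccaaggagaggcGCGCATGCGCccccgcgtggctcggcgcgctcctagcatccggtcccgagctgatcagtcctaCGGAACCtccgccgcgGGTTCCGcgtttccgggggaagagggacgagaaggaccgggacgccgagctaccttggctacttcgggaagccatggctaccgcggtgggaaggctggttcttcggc
Mrpl21, chr19:3282843-3283042, plus strand: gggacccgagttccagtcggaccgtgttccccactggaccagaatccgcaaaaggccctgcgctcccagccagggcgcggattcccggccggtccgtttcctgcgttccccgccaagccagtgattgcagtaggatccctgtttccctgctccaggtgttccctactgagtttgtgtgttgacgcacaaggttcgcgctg

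In the 300 bases around the centre, CCGGAAG was found in 7 of the 12 Zbtb11-high member windows (58.3%) and in 8 of the 16 weaker ones (50%), against 47.8% of all 857 Zbtb11-high windows and 29.4% of all 7500. CGGAACC was found in 6 of the 12 (50%) and 3 of the 16 (18.8%), against 25% of all Zbtb11-high windows and 9.04% of all windows. Since this motif was chosen on the same windows, its shares are a description. It was present at *Mrpl48*, *Mrpl3*, *Mrpl30* and *Mrpl1* among the genes called lower, and at *Mrpl39* and *Mrpl20*, which the unblocked fit did not call. GCGCATG was found in 1 of the 12 (8.33%) and 3 of the 16 (18.8%), against 3.2% of all windows. Promoters were also taken as 250 bases before to 50 after the outermost start of each gene. In these, CCGGAAG occurred in 14 of the 48 members (29.2%) and 16.2% of expressed protein-coding genes, and GCGCATG in 5 (10.4%) and 6.7%. Of the 12 members with a Zbtb11-high window, 3 (25%) had CCGGAAG there. At *Mrpl48*, *Mrpl1*, *Mrpl13* and *Mrpl39* the outermost start is not the one nearest the window centre. The median GC content of the 48 promoters taken this way was 57.7%, against 60% for expressed protein-coding genes.

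Promoter coverage and transcript change went together as classes, and not by degree within the strong class. In the unblocked edgeR fit with all libraries, the members called in either comparison with KO cells had a Zbtb11-high window. With the block, 2 of the 11 members lower than the 4OHT control and the 13 higher ones had a weaker window or none. With a Zbtb11-high window 6 of 12 genes were lower against the EtOH control, beside 0.843% of all tested genes. The median log2 fold change of the 12 was -0.92. The share called among all genes with a Zbtb11-high window is not given here. Of the 16 genes with a weaker window none was called, and their log2 fold changes ranged from -0.10 to 0.11 (median 0.03). Of the 19 tested genes without a window none was called either (no gene of these classes at an unadjusted p under 0.05 in edgeR, and none in DESeq2), with a range of -0.25 to 0.14 (median 0.02). Across the 28 genes with a window, log2 coverage and log2 fold change against the EtOH control had Pearson's r of -0.694 and Spearman's rho of -0.761, while within the 12 strong windows r was 0.232 and rho 0.196. These are across genes measured in the same libraries, and genes are not independent replicates.

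**Figure D4:**
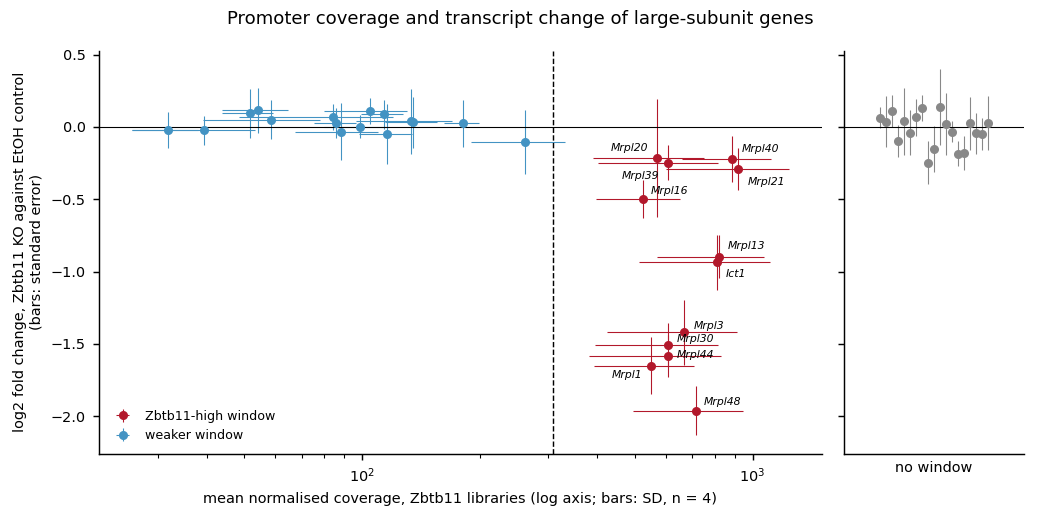
Log2 fold change in *Zbtb11* KO against EtOH control (vertical axis, bars show the standard error) against the mean normalised coverage of the promoter window in the 4 Zbtb11 libraries (horizontal log axis, bars show the SD), with tested genes without a window at the right. Right of the dashed limit of 308.9 the changes spread from -0.21 to -1.96, with no order by coverage, and left of it all lie between -0.10 and 0.11.

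Among the 12 genes, the 4 that were not called in either comparison by the unblocked fit were *Mrpl21*, *Mrpl39*, *Mrpl40* and *Mrpl20*. *Mrpl21* measured 41.3, 54.0 and 51.3 CPM in the EtOH control, 35.2, 41.8 and 43.0 CPM in KO cells and 37.5, 45.7 and 51.1 CPM in the 4OHT control. Its log2 fold change of -0.29 (standard error 0.14) was past the threshold with the replicate block (edgeR adjusted p = 0.00998). *Mrpl39* measured 59.4, 69.5 and 70.8 CPM in the EtOH control, 54.0, 60.1 and 54.3 CPM in KO cells and 55.3, 69.8 and 74.2 CPM in the 4OHT control (-0.25, standard error 0.12). Against the 4OHT control *Mrpl39* was lower with the block (-0.24, edgeR adjusted p = 0.00809) and without replicate 1 (-0.34, 0.00941). *Mrpl40* was at 45.3, 61.5 and 61.0 CPM in the EtOH control, 41.0, 53.4 and 49.2 CPM in KO cells and 42.4, 50.9 and 57.2 CPM in the 4OHT control (-0.22 against EtOH, standard error 0.16). *Mrpl20* was at 22.9, 43.9 and 42.6 CPM in the EtOH control, 19.5, 37.0 and 37.8 CPM in KO cells and 15.7, 37.9 and 46.5 CPM in the 4OHT control, so replicate 1 was far below the others in each group and its standard error was 0.41 around -0.21. For all 4 the KO library was below the EtOH control library of the same replicate number in 3 of 3 pairs, and the ranges of the groups overlapped.

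Of the 12 genes, 6 have a start within 1 kb of the start of a gene on the other strand. For 5 of them the neighbour starts inside the window. The exception is *Rab6*, which starts at the outermost *Mrpl48* start, 24.3 kb from the centre of the *Mrpl48* window. None of the 6 neighbours was called against the EtOH control (edgeR, unblocked). At an unadjusted p under 0.05, 3 were lower and 1 was higher, beside 1.95% and 0.85% of all genes. DESeq2 called 2 lower and 1 higher, beside 1.14% and 0.112%, and 3 were lower with the block, beside 1.79%. *Mtbp*, the neighbour of *Mrpl13*, went from 33.5 ± 5.12 to 17.2 ± 4.41 CPM (SD, n = 3), a log2 fold change of -0.96 (edgeR adjusted p = 0.112, and 1.09e-08 with the block). *Mitd1*, beside *Mrpl30*, went from 16.1 ± 1.88 to 9.06 ± 1.20 CPM (-0.83, edgeR adjusted p = 0.11, and 2.5e-05 with the block). *Hira*, on whose side the window at *Mrpl40* lies, went from 95.1 ± 24.1 to 55.5 ± 14.8 CPM (-0.78, edgeR adjusted p = 0.731, and 1.93e-08 with the block), beside -0.22 for *Mrpl40*.

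The other 3 neighbours were not lower than in the EtOH control in either fit. *Ighmbp2*, beside *Mrpl21*, was at 25.5 ± 1.81 CPM in the EtOH control and 34.2 ± 3.84 CPM in KO cells (SD, n = 3), a log2 fold change of 0.42 (edgeR adjusted p = 0.251, and 0.000426 with the block, where it was higher). *Wdfy1* beside *Mrpl44* (-0.20) and *Rab6* beside the outer start of *Mrpl48* (-0.13) were past the threshold against the EtOH control in neither fit, beside -1.59 for *Mrpl44* and -1.96 for *Mrpl48*. Against the 4OHT control, *Mtbp*, *Hira* and *Mitd1* were lower and *Ighmbp2* was higher (edgeR adjusted p = 0.0186, 0.0298, 0.0352 and 0.0265). *Wdfy1* was lower there with the block (-0.48, edgeR adjusted p = 1.63e-06) and without replicate 1 (0.00176), and not in the unblocked fit (0.192). Without replicate 1, *Mtbp*, *Hira* and *Mitd1* were also lower than in the EtOH control (edgeR adjusted p = 6.98e-05, 4.83e-05 and 0.00358), and *Ighmbp2* was higher (0.0122). *Mrpl13*, *Mrpl21*, *Mrpl44* and *Mrpl48* overlap their neighbour on the other strand in 4.16, 5.82, 8.85 and 11.5% of their exon bases. The libraries were directional, but whether the counting used strand is not given in the sources used here.

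Among the other genes of the large subunit, the 4 with another symbol (*Mrp63*, *Gadd45gip1*, *Mrps30* and *Mrps18a*) were not called against the EtOH control in edgeR or DESeq2, nor at an unadjusted p under 0.05, with log2 fold changes from -0.21 to 0.05, and none has a Zbtb11-high window. Of the 20 tested genes for factors that assemble the large subunit, 1 was lower, *Trub2*, a pseudouridine synthase (-1.06, edgeR adjusted p = 0.0266). None was higher, and over all genes 0.843% were lower and 0.0558% higher. The files hold 29 genes with the symbol Mrps and a number, a list made by symbol to stand for the small subunit. It includes *Mrps30* and *Mrps18a*, which are counted above with the large subunit. Whether each of the others encodes a small-subunit protein was not checked, and small-subunit genes with other symbols are left out. Of the other 27, 15 had a promoter window and 8 a Zbtb11-high window, shares of 55.6 and 29.6%. Of the 29, *Mrps31* was lower against the EtOH control (-1.10, edgeR adjusted p = 0.00145) and none was higher, and the block added *Mrps34* (-0.81, edgeR adjusted p = 0.00056). Against the 4OHT control *Mrps31* and *Mrps34* were lower and *Mrps35* was higher (0.67, edgeR adjusted p = 0.0138), beside 3.72% and 2.73% of all genes. With the block 4 were lower and 10 higher, beside 18.1% and 16.9%. *Trub2*, *Mrps31*, *Mrps34* and *Mrps35* were named after their values were seen. Of the 13 proteins encoded in mitochondrial DNA, which the mitoribosome makes, 7 had transcripts past the filter, and none was called in any of the 3 comparisons by the unblocked fit, the blocked fit or DESeq2, nor at an unadjusted p under 0.05 (log2 fold changes of -0.24 to -0.002 against the EtOH control). Without replicate 1, *mt-Co1* was lower against the 4OHT control (-0.47, edgeR adjusted p = 0.048).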

How the data were processed

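Gene counts were deposited by the authors as raw counts, 1 file per library. Per the methods of the study, rRNA-depleted directional paired-end reads were trimmed, aligned to mm9 with STAR and counted with HTSeq. Whether the counting used strand is not given in the sources used here. Coverage was deposited as signal normalised by the authors with DiffBind over consensus windows, from reads aligned with Bowtie 1.1.2. The deposited peak lists hold 1 set of peaks per ChIP, called with MACS2 within the IDR pipeline, and the inputs were not used here.

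Genes above 1 CPM in at least 3 libraries were tested with the quasi-likelihood test of edgeR 4.0.16 (R 4.3.3, TMM scaling, all 3 groups in 1 fit), with Benjamini-Hochberg adjustment over all genes and a threshold of 0.05. DESeq2 1.42.0 and other settings were alternatives. The procedure was tested on simulated data without a replicate effect, so that test did not cover the shared variation of same-numbered libraries. P-values measure the spread between these libraries, which are replicates of single lines. Depth was 14301457 to 23876604 counts on genes. The study left 1 distant replicate out of its final gene list without giving its number, and all were kept here.

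Same-numbered libraries deviated together from their group means in each of 9 pairs (correlation 0.43 to 0.82, against -0.753 to 0.526 for 18 pairs with different numbers), so the numbers were taken as paired, from the data and not from the labels. The pairing was less clear between replicates 2 and 3. EtOH control 2 and KO 2 correlated with 4OHT control 2 at 0.43 and 0.45, and with 4OHT control 3 at 0.53 and 0.46. EtOH control 3 and KO 3 correlated with 4OHT control 3 at 0.68 and 0.63, and with 4OHT control 2 at 0.35 and 0.29. Between EtOH control and KO, same-numbered libraries 2 and 3 correlated at 0.52 and 0.60, and the others at 0.46 and 0.43.

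Members and lists were chosen with earlier results of these data known. Named in full were members called in any comparison or with a Zbtb11-high window, the 5 further members with the largest change, the 3 highest and 3 lowest per kb, members below the filter, divergent neighbours, and 4 large-subunit genes with other symbols. Other genes, the motif CGGAACC and the blocked fit without replicate 1 were chosen after the data were examined. Near-identical copies (at least 100 bases at 95% identity) were found with blastn 2.17.0 and sequences read from mm9 with samtools 1.23.1 and pysam 0.24.0. Tables and plots used Python 3.11.15, pandas 2.3.3 and matplotlib 3.10.9.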

Additional observations from a re-analysis of the deposited data

How the results depend on the processing

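With the replicate number as a block, 9 large-subunit genes were lower in KO than EtOH control, beside 1.79% of all genes. In KO than 4OHT control 11 were lower and 13 higher, beside 18.1% and 16.9%. In the 4OHT than the EtOH control 15 were lower and 3 higher, beside 16.5% and 17%. Leaving out 1 replicate at a time gave 0 to 8 members lower against the EtOH control and 1 to 10 lower against the 4OHT control, 0 to 6 higher against the 4OHT control, and 0 to 9 lower between the controls. Over the same fits 0.0896 to 1.35% of all genes were lower against the EtOH control and 0.469 to 10.3% against the 4OHT control. Higher against the 4OHT control were 0.0965 to 8.38%, and lower between the controls 0.0276 to 8.22%. The block without replicate 1, added after the data were seen, gave 10 lower against the EtOH control, beside 1.85% of all genes. Against the 4OHT control it gave 11 lower and 12 higher, beside 15.7% and 13.7%. Between the controls it gave 13 lower and 0 higher, beside 13.5% and 14.1%. DESeq2 gave 2 higher against the 4OHT control and 1 lower between the controls, beside 4.57% and 4.16% of all genes. Library sizes in place of TMM gave 1 higher against the 4OHT control, beside 3.26%. The median log2 fold change of the members became 0.005 against the EtOH control with library sizes, and ranged from -0.038 to 0.049 against the 4OHT control when 1 replicate was left out. Median coverage was 135.1 with promoters of 1 kb and 143.7 over the FLAG-Zbtb11 libraries. Signs changed in genes that were not called, in *Mrpl12* (0.096 to -0.006 over the fits without 1 replicate, the latter without replicate 3) and *Mrpl52* (0.005 with library sizes, and -0.115 to 0.042 without 1 replicate) against the EtOH control. The causes of these differences were not tested. With replicate 1 in the fit the biological coefficient of variation was 17.4%, and without it 6.8%. The study reports a fall of close to this size on leaving out its distant replicate, which it does not number.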

Other observations

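A few large-subunit promoters carried Zbtb11 peaks that the coverage table does not hold. *Mrpl53* and *Mrpl47* overlapped a peak in both the Zbtb11 and the FLAG-Zbtb11 list and had no window, and *Mrpl36* overlapped a peak of the FLAG-Zbtb11 list alone. The log2 fold changes of *Mrpl47* and *Mrpl36* against the EtOH control were -0.04 and 0.14, and neither was called in edgeR.

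The summed level of the 12 genes with a Zbtb11-high window was 423, 551 and 547 CPM in the EtOH control, 254, 329 and 325 CPM in KO cells and 410, 515 and 571 CPM in the 4OHT control. The summed level of the other 36 genes was 1603, 1991 and 2021 CPM, 1637, 1902 and 2012 CPM, and 1536, 1750 and 1891 CPM in the same order. The KO libraries were thus below all controls in the first sum and within the range of the EtOH control in the second. Replicate 1 gave the lowest value of each group in both sums.

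The pseudogene *Mrpl48-ps* held 5, 9 and 8 counts in the EtOH control, 0, 2 and 1 in KO cells and 15, 11 and 15 in the 4OHT control. A count of 0 in 1 library is compatible with up to 3 counts by counting error alone.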
